A study of Homo sapiens with 4 samples.

Results

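The genes of the DNA topoisomerases and of the enzymes that clear trapped topoisomerases from DNA ends were examined for γH2AX, the phosphorylated form of histone H2A.X that marks chromatin around DNA double-strand breaks. The members were chosen by function, though with earlier results of these data known. They were TOP1, TOP1MT, TOP2A, TOP2B, TOP3A, TOP3B, TDP1 and TDP2. These are 8 of the 19974 protein-coding genes of chromosomes 1 to 22 and X in the RefSeq table (GRCh38.p14). Each gene was taken as its annotated extent plus 5 kb on either side, and together these windows span 498.7 kb. A γH2AX peak here is 1 row, and so 1 summit, of a deposited peak list. The cells were SK-UT-1, an established line from a human uterine leiomyosarcoma, which is a cancer of smooth muscle, and all groups share that background. There were 4 groups with 1 chromatin immunoprecipitation (ChIP-seq) library each: vehicle (0.1% DMSO), OTS186935 at 1 µM, doxorubicin at 0.5 µM, and the combination of the drugs at those doses. OTS186935 inhibits the histone methyltransferase SUV39H2, and doxorubicin intercalates into DNA and traps topoisomerase II. How long the cells were exposed is not stated in the labels. With 1 library and 1 cell line there are no replicates, so no difference between conditions was tested and the values stand side by side.

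Topoisomerases relieve the twisting and tangling of DNA by cutting it, holding the cut end through a covalent tyrosine link, letting strands pass or rotate, and sealing the cut. Type II enzymes cut both strands, type IB and type IA enzymes cut a strand at a time, and a drug that stops the sealing step turns the short-lived complex into a lasting break. The phosphodiesterases remove the protein remnant so that the end can be repaired. A peak at the gene of such an enzyme says where γH2AX lay, not how much of the enzyme was made or how active it was.

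The lists held 76870 peaks in DMSO, 62008 under OTS186935, 48594 under doxorubicin and 29619 under the combination. Their median peaks had 8, 7, 7 and 7 fragments at the summit, solved from the deposited fold enrichment and −log10 p, so all were shallow. The commonest local background, the floor of each library, was 0.454, 0.397, 0.389 and 0.428 fragments in the same order. At the floor a peak needed at least 3 fragments in the first 3 libraries and 4 in the combination. A window without a listed peak therefore means that no peak was detectable at this depth. Exact Poisson 95% intervals beside fragment numbers, and exact Clopper-Pearson 95% intervals beside shares, cover counting error only. The peak lists offer no check of the labelled cell type or treatments.

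In the 8 windows there were 26 peaks in DMSO, 15 under OTS186935, 20 under doxorubicin and 6 under the combination. These are 57.7%, 76.9% and 23.1% of the DMSO number for the treated libraries, where the whole lists had 80.7%, 63.2% and 38.5%. At least 1 peak lay in 7 of 8 genes with DMSO, against 78.3% of all genes, in 5 of 8 with OTS186935, against 71.7%, in 7 of 8 with doxorubicin, against 65.1%, and in 5 of 8 with the combination, against 50.5%. The members' shares were thus above those over all genes except with OTS186935, where they were below, and no difference was tested. Genes carry peaks more often the longer they are. With doxorubicin, 67.7% of genes of 20 to 50 kb and 78.3% of 50 to 100 kb had a peak, the classes of all members but TDP2. With peaks in another coding gene left out, 3 of 8 members had a combination peak. The order of the libraries depended on list length: among the 29619 peaks of lowest p in each list, the 8 windows held 6 in DMSO, 1 under OTS186935, 12 under doxorubicin and 6 under the combination, in 4, 1, 5 and 5 genes. For the first 3 libraries the share of all genes with a peak in so short a list was not computed. This order is therefore not shown to be particular to these genes. A −log10 q of at least 5 was reached in 3 genes with DMSO (TOP1, TOP3A and TOP3B), and in none with OTS186935, doxorubicin or the combination, while of all genes 37.2%, 23.8%, 12.4% and 6.57% had so strong a peak.

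**Figure D1:**
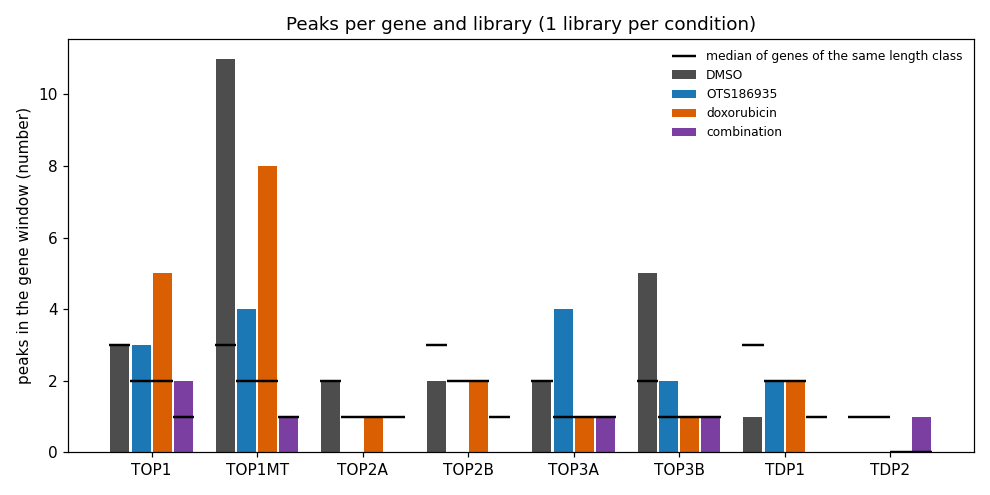
Number of γH2AX peaks in each gene window (vertical axis) for the 8 genes (horizontal axis) and 4 libraries (colours), with 1 library per bar and so no error bar. The black lines mark the median of protein-coding genes of the same length class. TOP1MT stands above its class line with 11 peaks in DMSO and 8 with doxorubicin, and TOP2A and TOP2B have no bar with OTS186935 or the combination.

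The type II enzymes are the targets of doxorubicin. TOP2A encodes the isoform of dividing cells, which separates replicated chromosomes, and TOP2B the isoform found in dividing and resting cells, which acts at transcribed and looped chromatin. TOP2A (chr17:40388525-40417896, minus strand, 29.4 kb) had 2 peaks in DMSO, 0 under OTS186935, 1 under doxorubicin and 0 under the combination. TOP2B (chr3:25597905-25664907, minus strand, 67 kb) had 2, 0, 2 and 0 in the same order. Both genes thus had peaks in the libraries without OTS186935 and in neither library with it. Over all genes, 3.45% showed that pattern, with 4.16% in the length class of TOP2A (20 to 50 kb) and 2.72% in that of TOP2B (50 to 100 kb). The pattern was picked out after these values were seen. Of genes in the class of TOP2A, 74.5% had a peak with OTS186935 and 50.4% with the combination, and of those in the class of TOP2B 82.6% and 63.4%.

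All 7 peaks of the type II genes were weak, with 4 to 6 fragments. In TOP2A, a site upstream of the start had a DMSO peak (chr17:40421039-40421410) of 6 fragments (interval 2.2 to 13.1), fold enrichment 3.4 and −log10 q 1.86. The doxorubicin peak at that site (chr17:40421059-40421359) also had 6 fragments, with fold 3.92 and −log10 q 2.19. The nearer edges of these peaks lay 3143 and 3163 bp before the start site. The other TOP2A peak, with DMSO alone, had its summit 12346 bp inside the gene and 5 fragments. From the TOP2A start site the nearest OTS186935 and combination peaks lay 24067 and 44013 bp upstream.

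In TOP2B both sites were called with DMSO and with doxorubicin. The site at the start of the gene was chr3:25664181-25664804 with DMSO, at 5 fragments (1.62 to 11.7), fold 4.13 and −log10 q 2.75. With doxorubicin it was chr3:25664548-25664844, at 4 fragments (1.09 to 10.2), fold 3.6 and −log10 q 1.82. RefSeq gives TOP2B start sites at 25664907 and 25664372, and the DMSO peak covered the latter, while the doxorubicin peak lay between them. The inner site, with summits 6345 and 6357 bp downstream of the inner start, had the same 5 and 4 fragments. These numbers are 1 or 2 fragments above the fewest listed at the floor of their libraries. In lists of equal length neither TOP2A nor TOP2B kept a peak in any library, and the share of all genes that kept none was not computed.

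The limit of 5 kb also bears on TOP2B. Just outside it, 9.06 kb beyond the gene's start side, lay a stronger site with 2 DMSO summits of 19 and 13 fragments (fold 7.17 and 5.02). Overlapping peaks were called there with OTS186935, at 9 fragments and fold 4.3, and with doxorubicin, at 11 fragments and fold 5.73. A combination peak of 12 fragments and fold 6.57 lay close by, at 8.09 kb. With windows of 10 kb TOP2B therefore had a peak in all 4 libraries, and the absence of peaks with OTS186935 held for the gene and its 5 kb flanks alone.

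The sequence before the start sites of the genes of the drug's targets and of TOP1 is shown. It was chosen because in some libraries a peak of TOP1 or TOP2B lay within 1 kb of a start, and no TOP2A peak did. Most TOP1 peaks lay farther inside the gene, and TOP2B also had the inner site given above. The lines give the 250 bases before the start from RefSeq (GRCh38.p14), 5′ to 3′ on the gene's strand, at chr20:41028572-41028821 (plus), chr17:40417897-40418146 (minus) and chr3:25664908-25665157 (minus, outer start). Capitals mark the CCAAT box (CCAAT, or ATTGG on the other strand) and the GC box (GGGCGG, or CCGCCC on the other strand), which do not overlap each other.
TOP1: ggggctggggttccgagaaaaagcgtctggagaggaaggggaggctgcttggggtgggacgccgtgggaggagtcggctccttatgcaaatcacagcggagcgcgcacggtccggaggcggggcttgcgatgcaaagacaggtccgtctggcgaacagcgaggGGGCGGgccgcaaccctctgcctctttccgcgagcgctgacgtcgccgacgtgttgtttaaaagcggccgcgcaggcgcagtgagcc
TOP2A: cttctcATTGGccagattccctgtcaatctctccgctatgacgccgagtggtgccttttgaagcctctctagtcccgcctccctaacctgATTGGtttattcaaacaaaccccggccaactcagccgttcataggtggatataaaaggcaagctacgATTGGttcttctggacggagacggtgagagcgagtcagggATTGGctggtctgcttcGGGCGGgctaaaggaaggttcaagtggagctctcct
TOP2B: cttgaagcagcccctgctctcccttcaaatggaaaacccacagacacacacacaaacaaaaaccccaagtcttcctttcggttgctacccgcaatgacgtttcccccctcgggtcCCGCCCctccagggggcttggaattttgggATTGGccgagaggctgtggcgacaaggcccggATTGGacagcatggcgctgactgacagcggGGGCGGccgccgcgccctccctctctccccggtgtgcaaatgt
TOP2A had 4 CCAAT matches and 1 GC box match, TOP2B 2 and 2, and TOP1 0 and 1. Of 22132 such windows of protein-coding genes, 32.7% held a CCAAT match and 53.7% a GC box match. No peak of any library overlapped these 3 windows. The matches describe the letters only.

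The type IB enzymes nick a strand and let the helix rotate. TOP1 encodes the nuclear enzyme, the target of camptothecin, and TOP1MT the enzyme of mitochondria, which is encoded in the nucleus. TOP1 (chr20:41028822-41124487, plus strand, 95.7 kb) had 3 peaks in DMSO, 3 under OTS186935, 5 under doxorubicin and 2 under the combination. It was 1 of 2 members, with TDP1, that had more peaks with doxorubicin than with DMSO, as did 11.7% of all genes. Of genes in its length class, 10.5% had 5 or more peaks with doxorubicin and 53% had 3 or more with DMSO.

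At the TOP1 start, peaks lay on opposite sides in different libraries. The DMSO peak (chr20:41027959-41028479) ended 343 bp before the start site and had 5 fragments (1.62 to 11.7) with fold 3.41. The OTS186935 peak (chr20:41029005-41029401) began 183 bp after it, with 6 fragments (2.2 to 13.1) and fold 4.05. The doxorubicin peak (chr20:41029017-41029740) began 195 bp after it, with 8 fragments (3.45 to 15.8), fold 5.76 and −log10 q 4.56. The combination had none there, its nearest peak lying 7985 bp downstream. The OTS186935 and doxorubicin summits, at 386 and 340 bp, were 46 bp apart. For the OTS186935 peak a second fragment number also matched the deposited values within 0.002.

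Farther into TOP1, the highest −log10 q of the gene was in DMSO at chr20:41075151-41075543, with 8 fragments, fold 6.19 and −log10 q 5.73. A doxorubicin peak of 3 fragments and −log10 q 1.05 overlapped it, and the OTS186935 and combination lists had none. A site with summits 8153 and 8149 bp after the start was called with OTS186935 and the combination (chr20:41036816-41037157 and chr20:41036807-41037106), at 5 fragments in each. Of the 9 regions formed by joining overlapping peaks in TOP1, 5 had a peak in 1 library and 4 in a pair of libraries. Over all regions of the lists the shares were 58.4% and 22.5%. The single-library regions inside the gene were doxorubicin peaks with summits 10990 and 92116 bp from the start (5 fragments each), an OTS186935 peak at 62858 bp (3 fragments) and a combination peak at 28257 bp (6 fragments, with a second matching number). A region near the 3′ end was shared by DMSO and doxorubicin, with summits 88788 and 88732 bp from the start and 5 and 4 fragments. This region and the last doxorubicin peak lie where the antisense RNA gene PLCG1-AS1 overlaps TOP1. TOP1 has pseudogenes on chromosomes 1 (TOP1P1) and 22 (TOP1P2), so the placing of reads that match these copies is uncertain.

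TOP1MT (chr8:143309324-143359977, 50.7 kb) held the most peaks of the 8 genes, with 11 in DMSO, 4 under OTS186935, 8 under doxorubicin and 1 under the combination. It supplied 42.3% of the members' DMSO peaks and 40% of their doxorubicin peaks. Among the 2907 genes of 50 to 100 kb, 2.82% had 11 or more with DMSO and 1.44% had 8 or more with doxorubicin, while 29.3% had 4 or more with OTS186935 and 63.4% had 1 or more with the combination. The gene thus stood high in its class in the full lists of the libraries without OTS186935. In lists of equal length it had 2, 1, 5 and 1 peaks. Its summits had 10 to 20 fragments, its folds were 2.48 to 4.31, and its local background was 5.25 to 13.6 times the library's floor. The gene lies 1.7 Mb from the last annotated base of chromosome 8, and DMSO peaks in the 500 kb on either side had a median background of 8.68 times the floor. The part of this background in the number of peaks was not tested.

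Of 14 TOP1MT regions, 6 were called with both DMSO and doxorubicin. The strongest lay at the higher-coordinate end of the gene. There DMSO had a peak interval with 2 summits (chr8:143359584-143361059; 19 and 14 fragments), doxorubicin 1 summit of 16 fragments (fold 4.31, −log10 q 4.42) and OTS186935 1 of 13 fragments. The combination's only peak in TOP1MT (chr8:143324314-143324871) had 15 fragments (8.4 to 24.7) and fold 3.74, and it overlapped a DMSO peak of 15 fragments and a doxorubicin peak of 11. Fragment numbers at this shared site were therefore within each other's intervals, but they were not scaled for library depth. The fold there was 2.48 with DMSO and 2.53 with doxorubicin. Local background was 5.45 fragments with DMSO, 3.74 with doxorubicin and 3.27 with the combination.

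**Figure D2:**
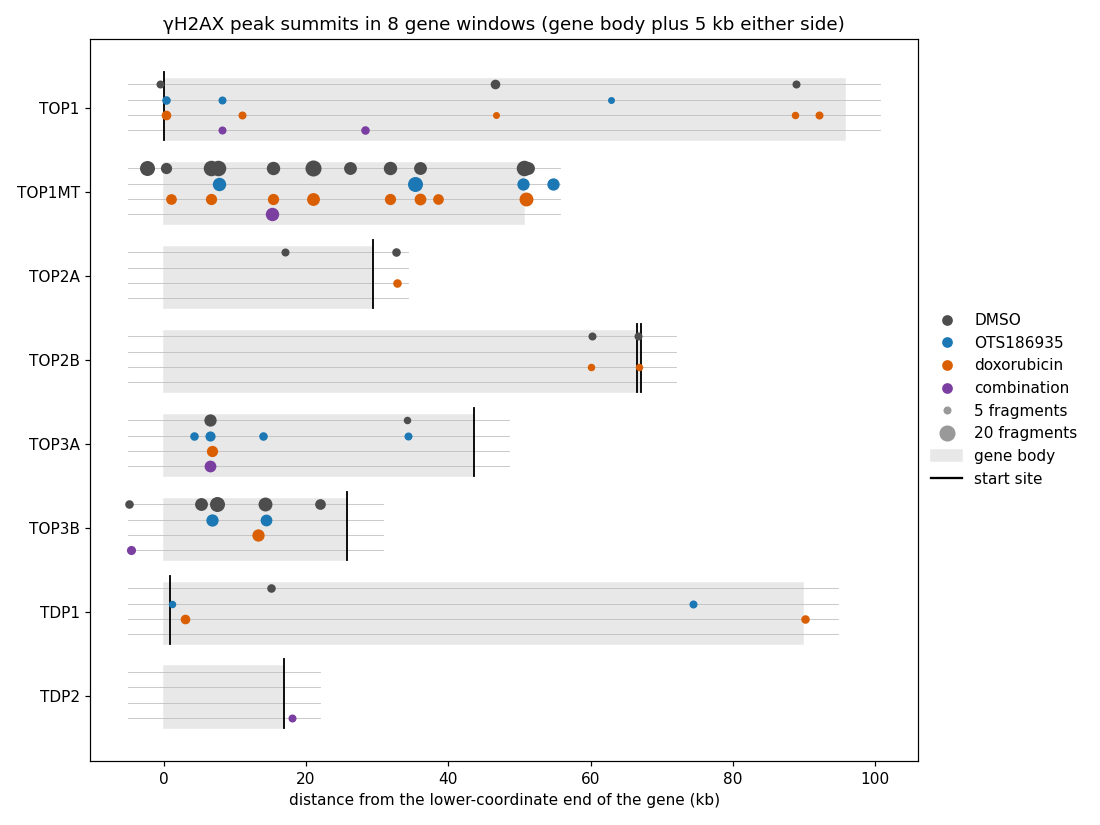
Summits of γH2AX peaks along the 8 genes, as distance in kb from the lower-coordinate end of each gene (horizontal axis), with 1 line per library (colours) under each gene name and dot size by fragments at the summit. Black lines are RefSeq start sites where the promoter table gives them. The dense row of large dots in TOP1MT, the aligned dots of all 4 libraries in TOP3A and the lone combination dot beside TDP2 can be seen.

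The type IA enzymes pass a strand through a nick. TOP3A encodes the partner of the BLM helicase in undoing recombination intermediates and also serves mitochondria, and TOP3B encodes an enzyme that acts on RNA as well as DNA. TOP3A (chr17:18271428-18314994, minus strand, 43.6 kb) had 2 peaks in DMSO, 4 under OTS186935, 1 under doxorubicin and 1 under the combination. It held the only region of all 43 in the 8 windows that was called in the 4 libraries, where 7.36% of all regions of the lists were. That region lay inside the gene, toward its 3′ end, with summits 36823 to 37121 bp from the start site. The DMSO peak (chr17:18277571-18278308) had 13 fragments (6.92 to 22.2), the OTS186935 peak 9 (4.12 to 17.1), the doxorubicin peak 11 (5.49 to 19.7) and the combination peak 12 (6.2 to 21). Folds were 6.2, 4.18, 4.62 and 4.86, and local background was 2.77 to 4.11 times the floor. The 4 fragment intervals overlap, but the fragment numbers were not scaled for library depth. A further TOP3A site was called with DMSO and OTS186935 (4 and 5 fragments), and 2 sites with OTS186935 alone (6 fragments each). With OTS186935, 14.8% of genes of 20 to 50 kb had 4 or more peaks.

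TOP3B (chr22:21957025-21982787, minus strand, 25.8 kb) had 5 peaks in DMSO, 2 under OTS186935, 1 under doxorubicin and 1 under the combination. In DMSO that is 14 peaks per 100 kb of window, where the surrounding 500 kb on each side had 5.66 and 12.9% of genes of its class had 5 or more. The strongest DMSO peak (chr22:21970907-21971495) had 16 fragments (9.15 to 26), fold 5.25 and −log10 q 6.32, and overlapped an OTS186935 peak of 12 fragments (6.2 to 21). A further DMSO peak of 18 fragments touched an OTS186935 peak of 13 only at its edge, the summits lying 614 bp apart, and 2 more, of 14 and 10 fragments, were in DMSO alone. The doxorubicin peak (chr22:21970152-21970447), with 13 fragments and fold 4.94, lay near these without touching them. The combination peak (chr22:21952061-21952639) lay in the neighbouring gene PPM1F, as did the DMSO peak it overlapped. Inside TOP3B itself, then, no combination peak was listed. A TOP3B pseudogene, TOP3BP1, lies elsewhere on chromosome 22, so the placing of reads that match both is uncertain.

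**Figure D3:**
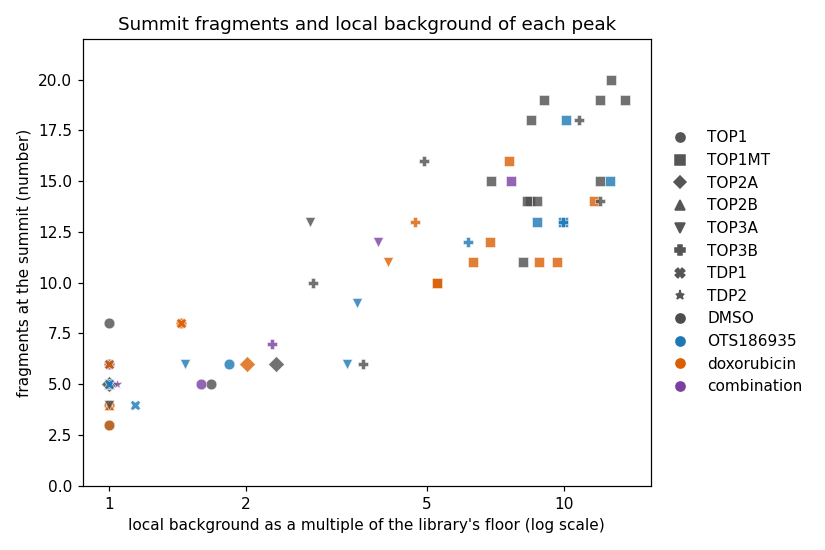
Fragments at the summit (vertical axis) against local background as a multiple of the library's floor (horizontal axis, log scale) for the 67 peaks of the 8 genes, with marker shape for the gene and colour for the library. Some points coincide. TOP1MT peaks lie at 5.25 to 13.6 times the floor with 10 to 20 fragments, while those of TOP2B lie at the floor with 4 or 5.

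The phosphodiesterases remove topoisomerase remnants from DNA ends. TDP1, which cleaves the link of topoisomerase I to a 3′ DNA end (chr14:89954968-90044764, plus strand, 89.8 kb), had 1 peak in DMSO, 2 under OTS186935, 2 under doxorubicin and 0 under the combination. None of its 5 peaks overlapped a peak of another library, and of all regions of the lists 58.4% had a peak in 1 library only. The OTS186935 peak at the start (chr14:89956049-89956459) began 122 bp after the start site and had 4 fragments (1.09 to 10.2). The doxorubicin peak (chr14:89957807-89958185) began 1880 bp after it and had 8 fragments (3.45 to 15.8), fold 5.76 and −log10 q 4.56. The DMSO peak lay deeper, with its summit at 14136 bp and 6 fragments. Near the other end, an OTS186935 peak had its summit at 73474 bp (5 fragments) and a doxorubicin peak at 89130 bp, just beyond the gene (6 fragments). From the start site the nearest combination peak was 228720 bp away. In DMSO, 29% of genes of 50 to 100 kb had 1 peak or none, and with the combination 36.6% had none. With OTS186935 and doxorubicin, TDP1 had the median number of its class, 2.

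TDP2, which releases topoisomerase II from a 5′ DNA end (chr6:24649979-24666899, minus strand, 16.9 kb), had 0 peaks with DMSO, OTS186935 and doxorubicin and 1 with the combination. That peak (chr6:24667902-24668432) had 5 fragments (1.62 to 11.7), fold 4.15 and −log10 q 2.41. It began 1003 bp before the TDP2 start site, inside the neighbouring gene ACOT13. Of genes under 20 kb, 66.7%, 58.8%, 49.8% and 35.2% had a peak in the 4 libraries, in the order above, so that an absence like that at TDP2 was common in its class. A peak in the combination alone was found at 0.756% of all genes and 1.05% of genes under 20 kb. The gene body of TDP2 itself had no listed peak in any library, and the nearest DMSO, OTS186935 and doxorubicin peaks were 32209, 57926 and 40840 bp from its start.

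Start sites were available for 7 of the 8 genes, all but TOP1MT. A peak lay within 1 kb of a start site in 2 of 7 in DMSO (TOP1 and TOP2B), 2 of 7 under OTS186935 (TOP1 and TDP1), 2 of 7 under doxorubicin (TOP1 and TOP2B) and 0 of 7 under the combination. Of the 15812 protein-coding genes with start sites the shares were 34.3%, 24.1%, 17.9% and 12.7%. The combination peak by TDP2 lay 1003 bp from the start site and so fell just outside the limit. TOP1 was the only member with a peak so near the start in 3 libraries.

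The first comparison set OTS186935 against DMSO, the SUV39H2 inhibitor against vehicle. TOP1MT, TOP2A, TOP2B and TOP3B, 4 of 8 genes, had fewer peaks with OTS186935, against 43.6% of all genes. TOP3A and TDP1 had more, 2 of 8 against 18.8%, and TOP1 and TDP2 had equal numbers. TOP2A and TOP2B had a peak with DMSO and none with the inhibitor, as did 11.9% of all genes. These tallies changed in lists of equal length, the 29619 peaks of lowest p in each. There TOP1, TOP1MT, TOP3A and TOP3B had fewer, 4 of 8 against 23.9% of all genes, and none had more, against 22.4%. TOP3A thus turned from more to fewer, TOP1 from equal to fewer, and TOP2A, TOP2B and TDP1 had no peak in either list. Of the 25 DMSO regions in the windows, 6 had an OTS186935 peak, or 24% (9.36 to 45.1), against 44.4% of all DMSO regions. Conversely 40% of the 15 OTS186935 regions had a DMSO peak (16.3 to 67.7), against 54.3%.

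With doxorubicin against DMSO, which shows the genes of the drug's own targets under the drug, TOP1MT, TOP2A, TOP3A and TOP3B had fewer peaks, 4 of 8 against 53.6% of all genes. TOP1 and TDP1 had more. In lists of equal length only TOP3B had fewer, 1 of 8 against 23.9%, and TOP1, TOP1MT and TDP1 had more, 3 of 8 against 23.9%. TOP1MT there turned from 11 and 8 peaks to 2 in DMSO and 5 with doxorubicin, and TOP3A had 1 in each. In the full lists, no member had a DMSO peak and no doxorubicin peak, where 17.8% of all genes did. Of the 25 DMSO regions 12 had a doxorubicin peak, or 48% (27.8 to 68.7), against 35.3% of all DMSO regions, and 60% of the 20 doxorubicin regions had a DMSO peak (36.1 to 80.9), against 54.2%. Of those shared regions 6 lay in TOP1MT, and without that gene 6 of 15 DMSO regions, or 40% (16.3 to 67.7), had a doxorubicin peak. For OTS186935 the share without TOP1MT was 26.7% (7.79 to 55.1). In these genes DMSO sites met doxorubicin peaks more often than OTS186935 peaks, the reverse of the order in the whole lists. Yet both intervals include the value over all regions, and they take regions as independent, although many share a gene. The difference between the drugs was not tested. In lists of equal length, DMSO shared 2 regions with doxorubicin and 0 with OTS186935. Both comparisons use the same DMSO library.

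**Figure D4:**
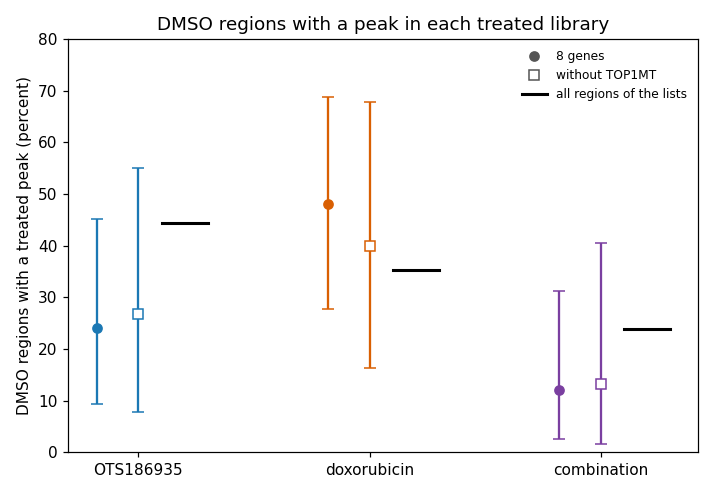
Percent of DMSO regions in the gene windows that had a peak in each treated library (vertical axis; horizontal axis, library), for the 8 genes (filled circles) and without TOP1MT (open squares), with exact 95% binomial intervals as bars. Black lines show all regions of the lists, 44.4%, 35.3% and 23.8%, which lie inside every bar.

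With the combination against DMSO, 7 of 8 genes had fewer peaks, against 65% of all genes, and TDP2 had more, as did 4.52%. TDP2 was also the member with a combination peak and no DMSO peak, found at 2.58% of all genes, though that peak lies in the neighbouring gene ACOT13. TOP2A, TOP2B and TDP1 had a DMSO peak and no combination peak, 3 of 8 against 30.3%. In lists of equal length TOP1MT and TOP3B had fewer peaks with the combination, 2 of 8 against 24.8%, and TOP1 and TDP2 more, 2 of 8 against 24.6%. TOP1 there had 1 peak in DMSO and 2 with the combination, and no member had a DMSO peak without a combination peak. The share of all genes with such a loss in lists of equal length was not computed. Of the 25 DMSO regions in the full lists 3 had a combination peak, or 12% (2.55 to 31.2), against 23.8%. They lay in TOP1MT, TOP3A and at the PPM1F side of TOP3B.

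Against doxorubicin alone, the combination had fewer peaks in TOP1, TOP1MT, TOP2A, TOP2B and TDP1, 5 of 8 against 43.5% of all genes, equal numbers in TOP3A and TOP3B, and more in TDP2, as 13.4% did. TOP2A, TOP2B and TDP1 had a doxorubicin peak and no combination peak, 3 of 8 against 22.1%. In lists of equal length the combination had fewer in TOP1, TOP1MT and TDP1, 3 of 8 against 24.4%, and more in TDP2, against 24.1%. Of 20 doxorubicin regions 2 had a combination peak, or 10% (1.23 to 31.7), against 28% of all doxorubicin regions. Against OTS186935 alone, the combination had fewer peaks in TOP1, TOP1MT, TOP3A, TOP3B and TDP1, 5 of 8 against 53.9%, and more in TDP2, as 8.32% did, while TOP2A and TOP2B had none in either library. TDP1 had an OTS186935 peak and no combination peak, as did 25.9% of all genes. This order was reversed in lists of equal length, where no member had fewer with the combination, against 23.5%, and TOP1, TOP3A, TOP3B and TDP2 had more, 4 of 8 against 24.8%. In both comparisons, the only combination peaks counted for TOP3B and TDP2 lie in the neighbouring genes PPM1F and ACOT13. Of 15 OTS186935 regions in the full lists 2 had a combination peak, or 13.3% (1.66 to 40.5), against 26.1%.

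Most sites in the 8 genes were called in a single library: of 43 regions, 24 had a peak in 1 library, 16 in 2, 2 in 3 and 1 in all 4. Over all 123975 regions of the lists, 58.4% had a peak in 1 library, 22.5% in 2 and 11.8% in 3. The commonest pattern in more than 1 library was DMSO with doxorubicin, at 9 of 43 regions, where 5.13% of all regions had it, followed by DMSO with OTS186935, at 4, where 9.19% did. Of those 9 regions, 4 lay in TOP1MT, 2 in TOP1, 2 in TOP2B and 1 in TOP2A. In all, 67 peaks made up these regions, of which 9 lay wholly in the flanks and 3 in another protein-coding gene.

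Genes that work with these enzymes were described by the same rule. Those named were picked by the highest −log10 q in any library, so differences between their libraries partly follow from that choice. Of 25 such genes, 20 had a peak in DMSO, 19 under OTS186935, 13 under doxorubicin and 14 under the combination, against the same shares of all genes given above, 78.3%, 71.7%, 65.1% and 50.5%. Partners and relatives of topoisomerases had 4, 4, 4 and 3 of 7. Among them SPO11, the meiotic enzyme that cuts DNA as a type II topoisomerase does, had a peak in every library, the highest with 16, 15, 13 and 10 fragments. Its partner gene TOP6BL had 7, 3, 2 and 1 peaks, the highest of fold 8.25 in DMSO. FMR1, whose protein works with TOP3B, had 1, 1, 0 and 0.

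Genes that process topoisomerase complexes and blocked ends had a peak at 13 of 14 in DMSO, 11 under OTS186935, 6 under doxorubicin and 8 under the combination. Of all genes 78.3%, 71.7%, 65.1% and 50.5% had a peak. The doxorubicin and combination lists held 63.2% and 38.5% as many peaks as that of DMSO. For this list, shares by length class and counts in lists of equal length were not computed. The genes named here were picked by the highest −log10 q in any library, which by itself favours a contrast between libraries. Their fragment numbers were not scaled for library depth. RBBP8, which encodes the end-resection factor CtIP, had its highest peak with OTS186935, at 12 fragments and fold 8.13, against 4, 6 and 4 fragments in DMSO, doxorubicin and the combination. APTX, which removes AMP from stalled ligation ends, had peaks in every library, the highest with 10, 10, 11 and 7 fragments. LIG3, a DNA ligase gene, had 1 peak of 3 fragments in DMSO, 2 with OTS186935, the higher of 10 fragments, and none with doxorubicin or the combination. Doxorubicin transport and metabolism genes had a peak at 3, 4, 3 and 3 of 4, against the same shares of all genes. AKR1C3, a reductase gene, reached 18 fragments and fold 10.6 in DMSO, against 6, 10 and 8 in the other libraries. ABCB1, the drug efflux pump gene, had 3, 2, 2 and 1 peaks, and ABCC1, another pump gene, 10, 12, 3 and 4. AKR1C3, ABCB1 and ABCC1 belong to gene families, and whether related copies affect the placing of their reads was not examined.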

How the data were processed

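γH2AX ChIP-seq of 4 SK-UT-1 libraries was used, 1 per condition, each as 1 deposited peak list. Formaldehyde-fixed chromatin was sonicated and precipitated with an antibody to phosphorylated H2A.X, per the labels' protocols. MACS2 2.2.7.1, Bowtie2 2.4.2, bedtools 2.30.0 and Picard 2.25.3, and the build hg38, stand in the submitters' processing notes without roles. Peak calling options and the use of an input were not given in the sources used here. The fold enrichment, which is a ratio to local background, the −log10 values of p and q, the score and the summit offset are the authors' deposited values, and they rank peaks within a list only.

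Members and gene lists were chosen with earlier results of these data known. Peaks overlapping a RefSeq extent plus 5 kb by at least 1 bp were counted, in all genes alike. Overlapping or touching peaks of the 4 lists were joined into regions. Summit fragments k and background b were solved from fold = (k + 1)/(b + 1) and the Poisson p. All peaks were matched within 0.002 in −log10 p; in the member windows 2 peaks had a second match. Length classes were under 20 kb, 20 to 50, 50 to 100 and over 100 kb. On simulated data, 100% of 2000 fragment numbers were recovered, and 0 of 200 window counts differed from a direct count. All 8 members and, per related list, the 3 genes of highest −log10 q were named. RefSeq promoters matched 7 of 8 members. Alternatives were other windows, thresholds, overlaps, summits inside the window, merged peaks and lists of equal length. Python 3.11.15, numpy 2.4.6, pandas 2.3.3 and scipy 1.17.1 were used.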

Additional observations from a re-analysis of the deposited data

How the results depend on the processing

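Depth, 1 library per condition and unknown peak calling options limit all values, and the cause of each shift below was not tested except where the setting itself keeps fewer peaks or genes. No paired analysis was possible because each condition had 1 library. Of 129 values recomputed under other settings, 91 stayed within 1.5 times the reported value. Libraries are given in the order DMSO, OTS186935, doxorubicin, combination, and pairs in the order of the comparisons in the text.

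With a −log10 q of at least 5, peaks in the 8 genes numbered 3, 0, 0 and 0, genes with a peak 3, 0, 0 and 0, related genes with a peak 10, 9, 6 and 2, and regions shared by a pair 0 in every pair. With a −log10 q of at least 2, OTS186935 had 9 peaks and doxorubicin 13. In lists of equal length, peaks numbered 6, 1 and 12 in the first 3 libraries, genes with a peak 4 with DMSO and 1 with OTS186935, related genes 12 with DMSO and 12 with OTS186935, and shared regions 0, 2, 1, 1 and 0. A reciprocal overlap of 50% left 3 regions shared by DMSO and OTS186935. Within gene bodies alone, and likewise with peaks in another coding gene left out, 3 genes had a combination peak. Without TOP1MT, DMSO had 15 peaks, doxorubicin 12, and regions shared by DMSO and doxorubicin numbered 6 and by doxorubicin and the combination 1. That setting and the leaving out of peaks in another coding gene were chosen after the data had been seen. Windows of 2.5 or 10 kb, summits inside the window, merged peaks and joining within 1 kb moved no count beyond 1.5 times.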
